A study of Rattus norvegicus with 65 samples.

Results

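The hypothalamic transcriptome was compared between rats that received PYY3-36, liraglutide, both hormones or neither, in a complete 2 by 2 design. The question was whether the effect of PYY3-36 on each gene depended on the presence of liraglutide. All libraries of the second experimental period (batch B) from the Saline, PYY, Lira and PYY_Lira groups were taken, which gave 19 of the 65 libraries in the series: 5 Saline, 4 PYY, 5 Lira and 5 PYY_Lira, with 1 library per animal. The animals were male Wistar rats, 9 to 10 weeks old at the start, made obese by 6 weeks of high-fat diet and then given a free choice of high-fat and low-fat diet. The PYY group received PYY3-36 at 0.1 mg/kg/day by osmotic minipump together with saline injections, and the Lira group received liraglutide at 0.4 mg/kg/day by subcutaneous injection together with a saline-filled pump. The PYY_Lira group received both agents at these doses, and the Saline group received saline by both routes. Whole hypothalami were collected 4 weeks after the start, following a 10 h fast. The authors excluded 1 PYY animal because of an error in RNA extraction.

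Liraglutide is a long-acting analogue of glucagon-like peptide 1 (GLP-1) and acts on the GLP-1 receptor, a Gs-coupled receptor that raises cyclic AMP. PYY3-36 is the truncated form of the gut peptide YY and prefers the Y2 receptor, a Gi-coupled receptor that lowers cyclic AMP and that sits on NPY/AgRP neurons of the arcuate nucleus. Those neurons drive feeding, whereas the neighbouring POMC/CART neurons restrain it, and both hormones can reduce food intake. In this study the paper reports lower food intake with liraglutide and with the combination, and both groups began to lose weight. Rats given PYY3-36 alone kept gaining weight, as did the saline group.

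The interaction was defined as the effect of PYY3-36 in liraglutide-treated animals minus its effect in saline-treated animals, on a log2 scale. A value of 0 means that the level with both hormones equals the sum of the separate log2 effects. A positive value places the combination above that sum and a negative value places it below. Levels are given as CPM, the count of a gene relative to the total of its library, scaled between libraries by the trimmed mean of M-values (TMM). In a bulk sample, fewer cells of a type and less RNA per cell cannot be told apart.

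The libraries held 20622249 to 35011146 counts, with group medians between 21993350 and 24396099, and 19789 of 38513 genes had enough counts to be tested. Genes that mark hypothalamic neurons were present in every library, with 16 tested members summing to between 55.5 and 224.4 CPM. Markers of neighbouring tissue were also present and uneven. The summed level of the 4 anterior pituitary genes that passed the count filter, of 11 listed, was 1.46 to 4.31 CPM in Saline, 2.99 to 173.1 in PYY, 1.11 to 305.7 in Lira and 0.837 to 8.38 in PYY_Lira. The highest mean log2(CPM + 1) levels of these 4 genes were in Lira replicate 1 (4.986), PYY replicate 1 (4.84), PYY replicate 3 (3.243) and Lira replicate 2 (3.113), and the other 15 libraries lay at or below 1.212. The hormone genes Prl and Gh1, which did not pass the filter, had 2108 and 7718 counts in PYY replicate 3, and Prl was at 0 in 17 libraries and Gh1 in 11. Cortex markers were highest in Saline replicate 4 (mean log2(CPM + 1) 6.499) and PYY replicate 2 (5.971), and PYY replicate 2 also stood apart on the second principal component, which held 13.2% of the variance. Where leaving out the 4 libraries of highest pituitary level, or these 2 of highest cortex level, turned the direction of a named gene, the value without them is given as well, as it is for genes at an unadjusted p under 0.05 whose value moved by more than 1.5 times.

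No gene passed the interaction test. In edgeR's quasi-likelihood test, with Benjamini-Hochberg adjustment over all 19789 genes, 0 genes (0%) had an adjusted p under 0.05 and an absolute log2 interaction above 1, and the smallest adjusted p was 0.135. At an unadjusted p under 0.05 there were 2957 genes (14.9%), of which 1085 (5.48% of all genes) were above the sum and 1872 (9.46%) below it. The share of these genes that lay below the sum was 63.3% with TMM scaling and 58.2% with RLE scaling, and it ranged from 50.2% to 64.3% when single animals were left out. It was 45.3% when the 4 libraries of highest pituitary marker level were left out, again with 0 genes called. The adjusted result depended on the tool, because DESeq2 called 181 genes (18 above and 163 below the sum) and limma voom called 0. All 181 had an unadjusted edgeR p under 0.05 with the same sign, and their largest adjusted edgeR p was 0.193.

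The precision allowed moderate interactions to be bounded for many genes but not for all. The median standard error of the interaction was 0.276, and the 95% interval lay entirely between -1 and 1 for 10933 genes (55.2%). The estimate itself exceeded 1 in either direction for 2401 genes (12.1%), and the interval lay wholly beyond that size for 111. The median interaction over all genes was -0.0135.

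The 20 genes with the smallest interaction p, 10 in each direction, showed opposite patterns by direction. In the 10 genes above the sum, PYY3-36 alone was below saline in 10 and liraglutide alone in 9, the exception being LOC102550503, while the 95% interval of the combination against saline included 0 in 10 of 10. In the 10 genes below the sum, each hormone alone was above saline in 10 of 10 and the interval of the combination against saline included 0 in 9. The saline mean enters both single-hormone effects as well as the interaction, so this pattern is in part fixed by how the genes were chosen. All 20 had an adjusted p of 0.135 in edgeR.

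**Figure D1:**
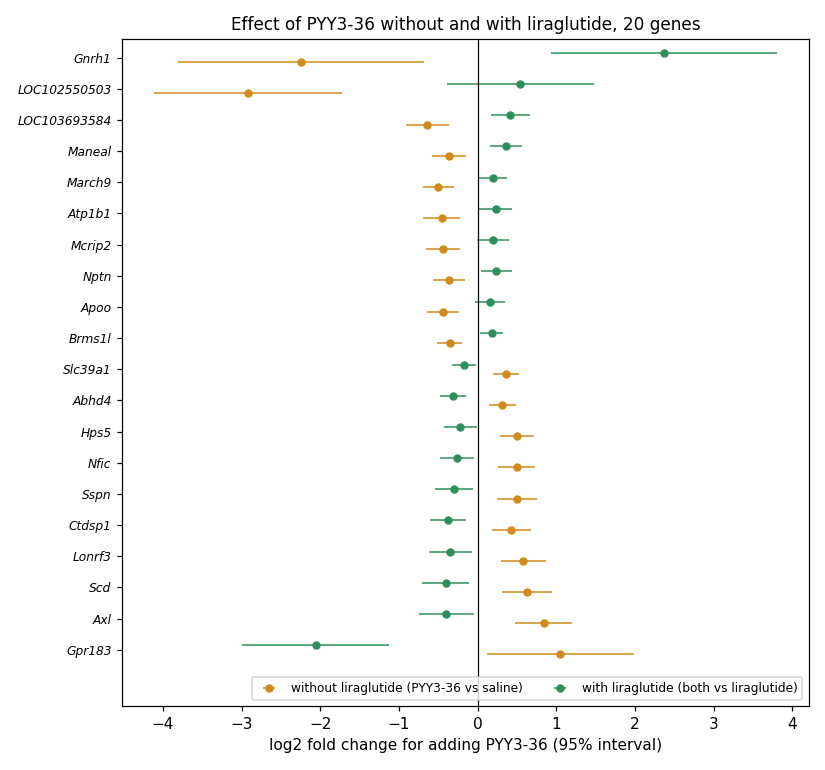
For each of the 20 genes of smallest interaction p (rows), the x axis gives the log2 fold change for adding PYY3-36, with its 95% interval, without liraglutide (PYY against Saline, orange) and with liraglutide (PYY_Lira against Lira, green). The estimates lie on opposite sides of 0 in the 2 arms for each of the 20 genes, which were chosen for this difference.

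LOC103693584 (gene26276, a long non-coding RNA gene on chromosome 11 of Rnor_6.0, 66568537 to 66574519, plus strand) stood at 39.9, 29.6, 25.2, 30.6 and 31.5 CPM after saline, at 19.1, 21.5, 16.8 and 23.2 after PYY3-36, at 20.3, 21.3, 24.7, 18.7 and 24.4 after liraglutide, and at 25.8, 31.0, 29.0, 30.5 and 29.8 after both. Each hormone alone lay below every saline-treated animal and the combination lay within the saline range. The combination averaged 29.2 ± 2.09 CPM (SD, n = 5), against 14.1 expected if the log2 effects added, and the interaction was 1.06 ± 0.175 (SE, 95% interval 0.689 to 1.42).

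March9 (gene18302, a membrane-bound ubiquitin ligase, chromosome 7, 70341989 to 70349126, minus strand) had 36, 30.3, 29.3, 30.2 and 35.3 CPM in Saline, 23.2, 20, 24.2 and 23.7 in PYY, 23.4, 28.8, 22.4, 25.4 and 27.1 in Lira, and 27.8, 31.2, 28, 28 and 30.4 in PYY_Lira. The single treatments again lay below every saline value. The combination averaged 29.1 ± 1.58 CPM (SD, n = 5) where 18.0 was expected from the sum, an interaction of 0.694 ± 0.129 (SE).

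Maneal (gene14598, an endomannosidase-like protein, chromosome 5, 142850139 to 142857292, minus strand) measured 41.3, 46.6, 45.6, 38.5 and 39.6 CPM after saline, 33.7, 24.9, 36.1 and 36.9 after PYY3-36, 32.7, 35.1, 35.5, 34.8 and 35.9 after liraglutide, and 46.2, 48.3, 43.9, 45.4 and 39.2 after both. The PYY animals did not overlap with saline and the combination did not overlap with liraglutide, in the opposite order. Its interaction was 0.721 ± 0.141 (SE), with 44.6 ± 3.43 CPM (SD, n = 5) observed and 27.1 expected.

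Brms1l (gene16059, a subunit of SIN3 histone deacetylase complexes, chromosome 6, 76743243 to 76753950, plus strand, a symbol that stands for more than 1 gene of the table) had 35.1, 31.8, 31.8, 36.7 and 34.0 CPM in Saline, 26.6, 24.9, 27.4 and 26.9 in PYY, 26.8, 28.9, 30.2, 26.3 and 25.0 in Lira, and 31.7, 31.1, 28.6, 30.8 and 33.2 in PYY_Lira. Both single treatments were below all saline-treated animals and the combination overlapped with them. The interaction was 0.534 ± 0.105 (SE).

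LOC102550503 (gene31861, a long non-coding RNA gene, chromosome 16, 8466963 to 8469867, plus strand) was low throughout, at 0.991, 1.24, 2.61, 1.29 and 1.13 CPM after saline, 0.471, 0, 0.121 and 0.142 after PYY3-36, 2.03, 2.05, 2.26, 1.15 and 0.966 after liraglutide, and 2.08, 2.63, 3.80, 1.92 and 1.93 after both. Here the group with PYY3-36 alone stood wholly below the saline range, and every animal in it had under 0.5 CPM. The interaction was 3.47 ± 0.72 (SE). The other genes of smallest p in this direction were Apoo (0.599), Nptn (0.607), Mcrip2 (0.633), Atp1b1 (0.685), which encodes a subunit of the sodium pump, and Gnrh1 (4.62 ± 1.02, SE). Gnrh1 encodes gonadotropin-releasing hormone, and its group means were 5.01 ± 2.87 CPM in Saline (SD, n = 5), 1.04 ± 0.915 in PYY (n = 4), 1.27 ± 0.722 in Lira (n = 5) and 6.59 ± 4.83 in PYY_Lira (n = 5). Saline replicate 4, at 0.388 CPM, was lower than any animal given a single hormone, so the groups overlapped.

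Among the genes below the sum, Abhd4 (gene30889, a lipase of N-acyl phospholipid metabolism, chromosome 15, 32888233 to 32906861, plus strand) had 110, 118, 122, 104 and 114 CPM in Saline, 145, 159, 141 and 121 in PYY, 152, 126, 130, 149 and 125 in Lira, and 112, 112, 115, 103 and 107 in PYY_Lira. Liraglutide alone was above every saline value, PYY3-36 alone overlapped with saline in 1 animal, and the combination lay within or just below the saline range. The combination averaged 110 ± 4.72 CPM (SD, n = 5) where 170 was expected, an interaction of -0.629 ± 0.116 (SE, 95% interval -0.874 to -0.385).

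Axl (gene1436, a receptor tyrosine kinase that binds Gas6 and is used by microglia and other cells to clear debris, chromosome 1, 82550892 to 82580761, minus strand) stood at 21.6, 14.5, 17.7, 19.9 and 18.1 CPM after saline, 34.6, 29.9, 38.1 and 28.8 after PYY3-36, 41.0, 23.1, 30.2, 29.5 and 22.3 after liraglutide, and 23.8, 20.6, 28.9, 20.3 and 17.5 after both. All 9 single treatment animals were above all saline-treated animals and the combination straddled the gap. The interaction was -1.24 ± 0.24 (SE), with 22.2 ± 4.34 CPM (SD, n = 5) observed and 52.3 expected.

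Hps5 (gene2043, a subunit of the BLOC-2 complex for lysosome-related organelles, chromosome 1, 102810114 to 102849430, minus strand) had 10.8, 9.73, 10.3, 8.94 and 11.5 CPM in Saline, 15.5, 15.8, 14.5 and 12.2 in PYY, 12.5, 11.9, 11.9, 13.7 and 13.3 in Lira, and 11.6, 9.88, 10.9, 10.7 and 11.2 in PYY_Lira. PYY lay wholly above Saline and PYY_Lira wholly below Lira. The interaction was -0.721 ± 0.142 (SE).

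Ctdsp1 (gene22504, a phosphatase of the RNA polymerase II tail, chromosome 9, 81672613 to 81677979, plus strand) measured 51.4, 60.4, 59.1, 74.2 and 63.6 CPM after saline, 82.5, 94.8, 78.1 and 77.2 after PYY3-36, 81.3, 64.7, 63.8, 82.7 and 57.2 after liraglutide, and 58.5, 51.6, 56.6, 50.8 and 51.7 after both. PYY3-36 alone did not overlap with saline, whereas liraglutide alone did. Its interaction was -0.808 ± 0.159 (SE).

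Scd (gene4730, stearoyl-CoA desaturase, which makes monounsaturated fatty acids, chromosome 1, 264159966 to 264173061, minus strand) had 44.2, 39.3, 42.2, 44.1 and 32.4 CPM in Saline, 60.1, 77.8, 63.1 and 49.2 in PYY, 60.7, 51.6, 31.9, 49.1 and 46.2 in Lira, and 37.9, 34.5, 33.0, 38.6 and 37.0 in PYY_Lira. The group with PYY3-36 alone was above all saline-treated animals. The interaction was -1.03 ± 0.208 (SE), with 36.2 ± 2.37 CPM (SD, n = 5) observed and 74.1 expected. Scd has close paralogs, between which the fractional counting can divide reads. The remaining genes in this direction were Gpr183 (-3.11), a receptor for oxysterols on immune cells, Nfic (-0.756), Lonrf3 (-0.925), the zinc transporter Slc39a1 (-0.531) and Sspn (-0.799).

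**Figure D2:**
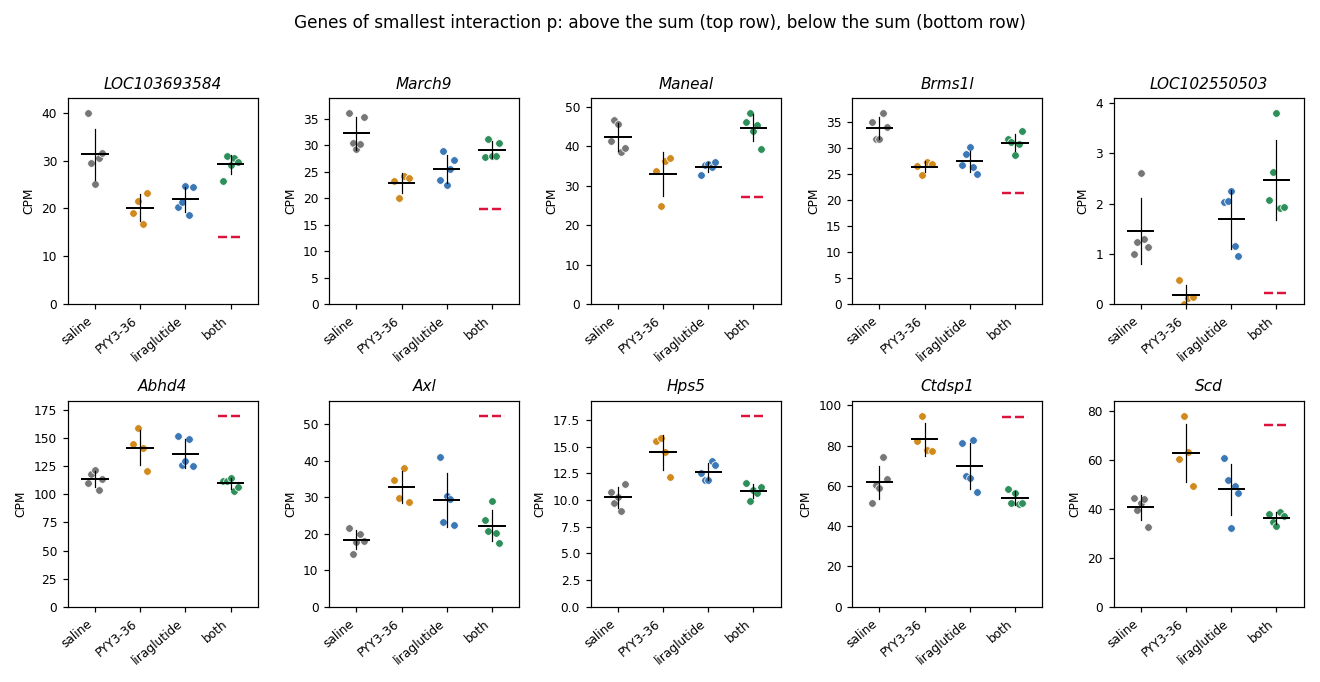
The panels show the level of the first 5 genes in each direction as CPM on a linear axis, with 1 point per animal in the Saline, PYY, Lira and PYY_Lira groups, a bar at the mean and an error bar of 1 SD. The dashed line is the combination level expected if the log2 effects added, for example 14.1 CPM for LOC103693584 against an observed mean of 29.2, and 52.3 for Axl against 22.2.

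A complete reversal, in which groups did not overlap in either arm, was found in 9 genes. PYY was wholly above Saline and PYY_Lira wholly below Lira in 5 genes (0.0253% of those tested), which included Hps5 and Gpr183. PYY was wholly below Saline and PYY_Lira wholly above Lira in 4 genes (0.0202%), which included LOC103693584 and Maneal. Gpr183 had 0.172, 0.982, 0.733, 1.12 and 1.53 CPM in Saline, 2.04, 1.82, 2.02 and 1.64 in PYY, 2.75, 0.793, 1.16, 1.68 and 3.18 in Lira, and 0.510, 0.279, 0.455, 0.501 and 0.538 in PYY_Lira. No animal with both hormones reached the lowest liraglutide value.

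Because GLP-1 receptors raise and Y2 receptors lower cyclic AMP, promoters were searched for the cyclic AMP response element, the letters TGACGTCA, which read the same on both strands, in the window from 250 bases before to 50 bases after each RefSeq gene start (GRCr8). The element was present in 612 of 33469 promoters (1.83%), and its 5-letter core TGACG, which lies within the full element, was present on either strand in 7097 (21.2%). Of the 20 genes of smallest p, 16 matched a symbol in the table, with 17 promoters, of which 1 (5.88%) held the element and 5 (29.4%) held the core. Of 6 feeding genes (Npy, Agrp, Pomc, Cartpt, Glp1r and Npy2r), 1 promoter (16.7%) held the element and 2 (33.3%) held the core. The 2 stretches with the element are shown 5′ to 3′ on the gene's strand, with the element in capitals, since they belong to a gene that reversed between arms and to a POMC/CART neuron peptide. They lie at chr1:106457268-106457375 (Hps5, minus strand, element starting 105 bases before the gene start) and chr2:32991320-32991427 (Cartpt, minus strand, 142 bases before). A match of letters is a description of the sequence and not of binding.
Hps5: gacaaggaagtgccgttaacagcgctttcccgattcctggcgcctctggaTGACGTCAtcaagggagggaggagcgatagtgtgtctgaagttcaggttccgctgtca
Cartpt: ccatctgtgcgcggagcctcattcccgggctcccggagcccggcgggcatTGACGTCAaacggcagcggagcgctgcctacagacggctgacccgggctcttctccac

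The levels of the arcuate feeding peptides overlapped between the groups, and no interaction passed the test. Npy (gene11603, chromosome 4, 79557856 to 79565059, plus strand), which encodes the orexigenic neuropeptide Y, had 43.2, 9.90, 15.5, 10.5 and 38.7 CPM in Saline, 13, 14.7, 14.2 and 11 in PYY, 13.9, 7.09, 28.6, 20.7 and 10.2 in Lira, and 22.9, 14.1, 19.4, 20.5 and 8.25 in PYY_Lira. The 4 groups overlapped, with the highest values in Saline replicates 4 and 8. The interaction was 0.915 ± 0.626 (SE, 95% interval -0.402 to 2.23, adjusted p = 0.508 in edgeR).

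Agrp (gene35675, chromosome 19, 37525941 to 37584875, minus strand), the antagonist of melanocortin receptors made by the same neurons, was at 0.474, 0.128, 0.448, 0.691 and 1.77 CPM after saline, 9.98, 0.931, 4.62 and 0.142 after PYY3-36, 8.42, 1.40, 0.433, 0.0961 and 1.75 after liraglutide, and 0.510, 0.279, 0.662, 1.78 and 0.672 after both. The 3 values above 4 CPM came from PYY replicates 1 and 3 and Lira replicate 1, which were also the 3 libraries of highest pituitary marker level. The interaction was -4.10 ± 1.45 (SE, adjusted p = 0.212 in edgeR), and it was 0.505 without the 4 libraries of highest pituitary marker level.

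Pomc (gene15639, chromosome 6, 28382937 to 28388771, plus strand), the precursor of the anorexigenic α-MSH and of pituitary ACTH, had 2.07, 8.96, 4.36, 3.97 and 3.10 CPM in Saline, 172, 3.07, 174 and 4.52 in PYY, 172, 29.1, 4, 3.08 and 16.5 in Lira, and 2.38, 8.97, 2.48, 32.4 and 5.06 in PYY_Lira. The same 3 libraries stood at 172 to 174 CPM and the other 16 at or below 32.4. The interaction was -6.41 ± 1.73 (SE, adjusted p = 0.151 in edgeR) and turned to 0.671 without the 4 libraries. Since Pomc is made in the anterior pituitary as well as in the arcuate nucleus, these values cannot be told apart by source.

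Cartpt (gene5240, chromosome 2, 30125249 to 30127408, minus strand), which encodes the peptide CART, had 6.68, 42.9, 57.3, 29.3 and 70.0 CPM in Saline, 177, 5.77, 164 and 60.1 in PYY, 187, 234, 37.9, 8.80 and 75.6 in Lira, and 62.4, 73.8, 50.2, 118 and 250 in PYY_Lira. The 4 groups overlapped, and the values in Saline, PYY and Lira each spanned more than 10-fold. The interaction was -1.27 ± 1.18 (SE, adjusted p = 0.640 in edgeR), and 1.79 without the 4 libraries of highest pituitary marker level.

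The receptors of the infused hormones showed no interaction that passed the test. Glp1r (gene36629, chromosome 20, 9586075 to 9626228, plus strand), the receptor for liraglutide, was at 0.431, 1.45, 3.58, 1.64 and 0.690 CPM in Saline, 6.99, 0.0931, 4.09 and 2.21 in PYY, 4.47, 2.33, 4.77, 0.913 and 2.54 in Lira, and 3.19, 3.55, 2.73, 2.14 and 1.79 in PYY_Lira. The spread within PYY covered that of all other groups. Its interaction was -1.26 ± 0.965 (SE, 95% interval -3.29 to 0.765, adjusted p = 0.558 in edgeR), and 0.415 without the 4 libraries.

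Npy2r (gene6459, chromosome 2, 181528949 to 181538145, minus strand), which encodes the Y2 receptor for PYY3-36, had 7.67, 9.73, 7.08, 7.25 and 5.47 CPM in Saline, 12.6, 7.26, 10.9 and 9.86 in PYY, 18.7, 10.1, 11.7, 6.15 and 11.9 in Lira, and 10.5, 15.3, 14.2, 11.3 and 10.2 in PYY_Lira. All animals with both hormones were above all saline-treated animals, while the single treatments overlapped with saline. How many of all tested genes show this separation was not counted. The interaction was -0.375 ± 0.338 (SE, 95% interval -1.08 to 0.335, adjusted p = 0.628 in edgeR), and 0.161 without the 4 libraries. The Y1 and Y5 receptor genes Npy1r and Npy5r had interactions of 0.382 and -0.0933. Among the related receptors, Gipr for GIP had 0.0481 (-0.143 without the 2 libraries of highest cortex marker level), Gcgr for glucagon -2 and the calcitonin receptor gene Calcr 0.483, and the genes for its partner proteins Ramp1, Ramp2 and Ramp3 had 0.692, -0.0226 (0.526 without the 4 libraries) and 0.514. Of 13 listed receptor genes 10 were tested, with 0 at an unadjusted p under 0.05 in either direction, estimates from -2 to 0.692 and a median of 0.0128, beside -0.0135 over all genes.

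**Figure D3:**
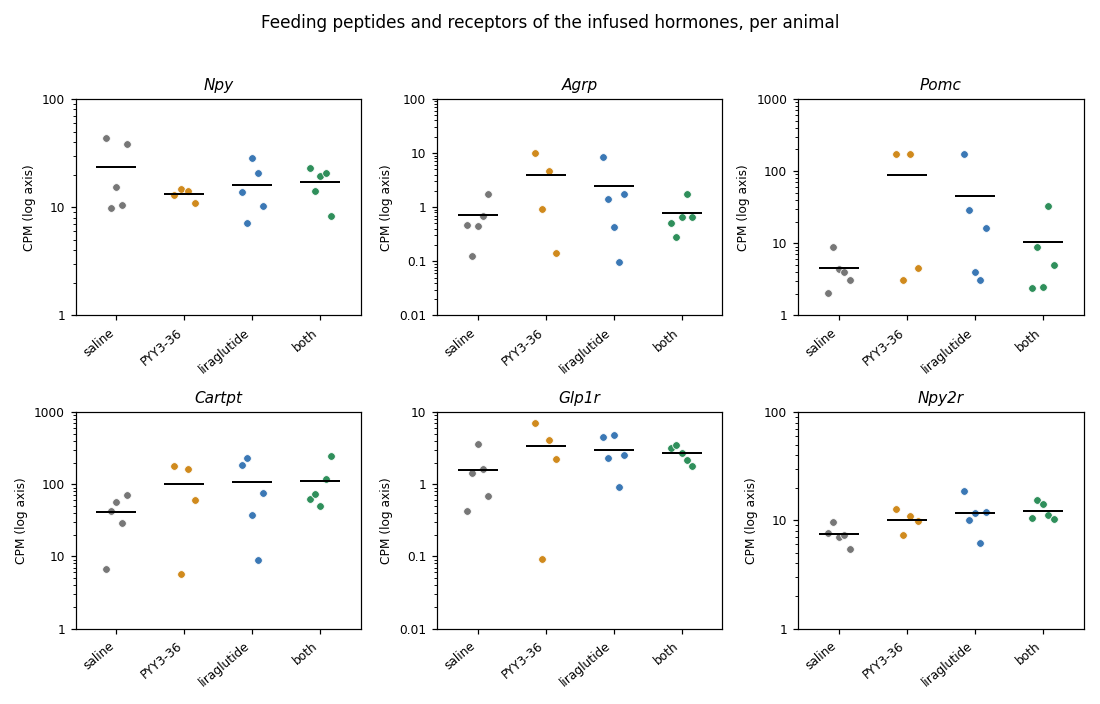
The panels show Npy, Agrp, Pomc, Cartpt, Glp1r and Npy2r as CPM on a log axis, with 1 point per animal in each of the 4 groups and a bar at the group mean. The 3 Pomc values of 172 to 174 CPM belong to PYY replicates 1 and 3 and Lira replicate 1, and in Npy2r the 5 animals with both hormones lie above the 5 given saline.

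Of 11 listed orexigenic peptide genes 8 were tested, and 1 of them (Agrp) lay below the sum at an unadjusted p under 0.05 and 0 above it. Pmch, which encodes melanin-concentrating hormone, had -2.88 ± 2.57 (SE) and Hcrt, which encodes orexin, had -3.98 ± 2.37, and without the 4 libraries of highest pituitary marker level they had 4.54 and 3.58. Galanin (Gal) had -0.159 (0.653 without those libraries), and the opioid precursor genes Penk, Pdyn and Pnoc had 1.13, 0.836 and 0.584. The list's median was 0.213, although the interaction of its mean log2 level was -0.539. Of 20 listed anorexigenic peptide genes 15 were tested, with 3 above and 2 below the sum at that level and a median of 0.398. Those above were Crh, corticotropin-releasing hormone (1.82 ± 0.577, SE), Nts, neurotensin (1.47 ± 0.644), and Tac1, the precursor of substance P (1.94 ± 0.733), and those below were Pomc and Nmu, neuromedin U (-5.72 ± 1.6). The highest Nmu levels were 13.6 CPM in Lira replicate 1 and 9.35 in PYY replicate 1, and its interaction was -0.726 without the 4 libraries of highest pituitary marker level. Adjusted p-values of these 5 genes in edgeR were 0.151 to 0.296. Besides Cartpt, the tested genes that did not reach that level were Oxt, oxytocin (2.27), Ucn3 (1.8), Nmb (0.93), Trh (0.791), Grp (0.398), Cck, cholecystokinin (-0.0179), Nucb2 (-0.185), Adcyap1 (-0.512) and Bdnf (-0.833). Without the 4 libraries, Grp had -0.0302, Nucb2 had 0.397 and Adcyap1 had 1.59. Crh had 2.95, 1.35, 2.15 and 4.98 CPM in PYY against 3.84 to 12.5 in Saline, 3.12 to 13.1 in Lira and 7.07 to 13.7 in PYY_Lira. The PYY group had the lowest mean Crh level, and 1 of its 4 animals overlapped with Saline.

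Genes of the mitochondrial respiratory chain lay above the sum, though none passed the test. All 74 tested nuclear genes for subunits of complexes I to V had a positive interaction, compared with 48.6% of all genes, and 22 of them were at an unadjusted p under 0.05 above the sum and 0 below. Their median was 0.29, with a range of 0.032 to 0.579. Examples were Uqcrfs1 (0.441), the Rieske subunit of complex III, Cox5a (0.505) of complex IV and Ndufa4 (0.496), and the smallest adjusted p of the 3 was 0.158 in edgeR. PYY3-36 alone was below saline in 73 of 74 genes and liraglutide alone in 66, and the median PYY3-36 effect was -0.331 without liraglutide and -0.0175 with it. The mean log2 level of the list was 7.296 to 7.484 in Saline, 7.005 to 7.115 in PYY, 7.06 to 7.498 in Lira and 7.161 to 7.489 in PYY_Lira, so PYY was wholly below both Saline and PYY_Lira. The median lay between 0.246 and 0.407 when single animals were left out, with 11 to 54 genes at an unadjusted p under 0.05, and was 0.399 without the 4 libraries of highest pituitary marker level. With neuron, astrocyte and oligodendrocyte marker scores as covariates the median was 0.213, with 2 genes at that level and 11 negative. With pituitary, choroid plexus and meninges scores it was 0.226, with 6 genes at that level and 5 negative. The replicate block gave 0.256, with 5 at that level and 8 negative. All 65 libraries with a batch term gave 0.179, with 0 at that level and 1 negative. The 86 cytosolic ribosomal protein genes, another abundant housekeeping group, had a median of 0.0245 with 51 positive and 35 negative. In this list too, PYY3-36 alone was below saline in 81 genes and liraglutide alone in 74. The PYY3-36 effect was also negative in 85 of the 86 genes with liraglutide, and its median was -0.202 without liraglutide and -0.155 with it.

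Pan-neuronal markers and transmitter receptor genes also lay mostly above the sum, whereas 11 of 16 markers of hypothalamic neuron identity were negative. Of 13 pan-neuronal markers, 12 were positive and 5 were at an unadjusted p under 0.05 above the sum, with a median of 0.393, and examples were the vesicle protein gene Syt1 (0.933, or 0.611 without the 4 libraries of highest pituitary marker level), the neuronal enolase gene Eno2 (0.478) and Gad1 (0.918), which encodes a GABA-synthesising enzyme. Among 31 GABA, glycine and glutamate receptor genes 24 were positive, 7 at that level, with a median of 0.386 and examples Gabrb2 (0.922) and Glrb (0.533). The receptor median was 0.217 to 0.52 when single animals were left out, and 0.0141 to 0.439 over the other fits apart from the replicate block. In the same fits the pan-neuronal median was 0.374 to 0.578 and 0.06 to 0.59. Of 20 immediate early genes, which report recent neuronal activity, 15 were positive and 1 was at an unadjusted p under 0.05 in each direction. Their median was 0.705, and it was 0.269 to 1.04 when single animals were left out, the lowest without Saline replicate 4. The mean log2(CPM + 1) of the list was 5.472 in that animal and 3.411 to 4.089 in the other saline-treated animals. The median was 0.174 without the 2 libraries of highest cortex marker level, and -0.044 with pituitary, choroid plexus and meninges scores as covariates. Fosb had 1.87, or 1.06 without those 2 libraries.

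Glial and border markers lay on the other side. All 10 astrocyte markers were negative, 5 at an unadjusted p under 0.05, with a median of -0.383. The examples were Gfap (-1.59), the filament protein of reactive astrocytes, the water channel gene Aqp4 (-0.737) and Aldh1l1 (-0.959, or -0.597 without the 4 libraries of highest pituitary marker level). Gfap stood at 613, 864, 1220, 688 and 569 CPM in Saline, 1170, 1890, 1230 and 993 in PYY, 1530, 618, 347, 964 and 877 in Lira, and 494, 293, 529, 698 and 394 in PYY_Lira. All PYY animals were above all animals with both hormones, with 1 saline value among the PYY values. With scores of neuron, astrocyte and oligodendrocyte markers as covariates, the interaction of Gfap was 0.121. Gfap is itself part of the astrocyte score, so this fit takes out part of its own signal.

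Of 13 tanycyte and ependymal markers, 12 were negative and 5 were below the sum at that level. Vim, the filament protein of tanycytes and other glia, had 73.5, 191, 131, 247 and 136 CPM in Saline, 427, 336, 278 and 294 in PYY, 494, 128, 58.1, 131 and 145 in Lira, and 60.7, 39.3, 58.4, 149 and 70.2 in PYY_Lira. PYY did not overlap with Saline or with PYY_Lira, and the highest Lira value came from replicate 1. The interaction was -2.44 ± 0.68 (SE, adjusted p = 0.155 in edgeR), and -1.52 without the 4 libraries of highest pituitary marker level. Rarres2 (-1.56), which encodes chemerin, and Nes (-1.10, or -0.48 without the 4 libraries), which encodes nestin, were the other examples.

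All 11 meningeal markers were negative, 7 at an unadjusted p under 0.05, with Slc6a13 (-3.31), Ogn (-3.25) and Igf2 (-2.65) as examples. Without the 4 libraries of highest pituitary marker level these had -0.809, -1.61 and -0.85. Their summed level was 185.9 to 938.9 CPM in Saline, 325.7 to 1168 in PYY, 141 to 1743 in Lira and 111.5 to 265.1 in PYY_Lira. The list's median was -2.65 and became -1.06 without Lira replicate 1 and -0.618 without the 4 libraries. The part of meninges, pituitary and other neighbouring tissue in the interaction of any gene was not tested beyond the fits with marker scores. In those fits, the genes at an unadjusted p under 0.05 numbered 557 above and 633 below the sum with pituitary, choroid plexus and meninges scores as covariates.

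The remaining cell type and region lists differed in how many members were at an unadjusted p under 0.05. All 10 oligodendrocyte markers were negative (median -0.571) with 0 at that level, and 9 of 10 microglial markers were negative (median -0.324) with 3 below the sum at that level. All 10 choroid plexus markers were negative (median -0.89) with 0 at that level, as were the 5 blood markers with 1. When single animals were left out, the choroid plexus median was -2.22 to -0.0913, nearest 0 without PYY replicate 2. The blood median was then -1.18 to 0.207. Endothelial markers were split with 5 in each direction and 2 below the sum at that level. The 9 striatal markers (median 1.77, 0 at that level) and 6 habenular markers (median 1.90, 1 at that level, Nwd2 at 2.04) were all positive, and the striatal median ranged from 0.443 to 2.59 when single animals were left out, the lowest without Saline replicate 8. The habenular level was 4.563 in Saline replicate 5 and 5.321 in Saline replicate 7, against 1.979 to 2.748 in the other 17 libraries. With habenula, thalamus, striatum and cortex scores as covariates the habenular median was -0.211 and the striatal median was -0.0495. These scores are the mean levels of the same genes, so this fit brings their medians near 0 by construction. Of the 10 thalamic and 10 cortical markers, 1 lay above and 1 lay below the sum at that level, respectively. Of 16 markers of hypothalamic neuron identity 11 were negative, with a median of -0.633, 1 above and 2 below the sum at that level. That median was -1.24 to -0.307 when single animals were left out. It was -0.799 to 0.653 over the other fits apart from the replicate block, so its sign depended on the fit. The interaction of the list's mean log2 level was -0.113.

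The 4 tested anterior pituitary genes were all below the sum at an unadjusted p under 0.05. Genes of this list could pass the count filter through the few single treatment libraries where they were high. Their shared direction is therefore in part fixed by the filter. Cga, the shared α subunit of the glycoprotein hormones, had 0.0861, 0, 0.0407, 0.0432 and 0 CPM in Saline, 111, 0, 11.8 and 0 in PYY, 204, 19.1, 0, 0 and 0 in Lira, and 0, 0, 0.248, 2.7 and 0.0448 in PYY_Lira. The gene was thus carried by PYY replicates 1 and 3 and Lira replicates 1 and 2, and no fold is given against a saline level near 0. Tshb was the other example.

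**Figure D4:**
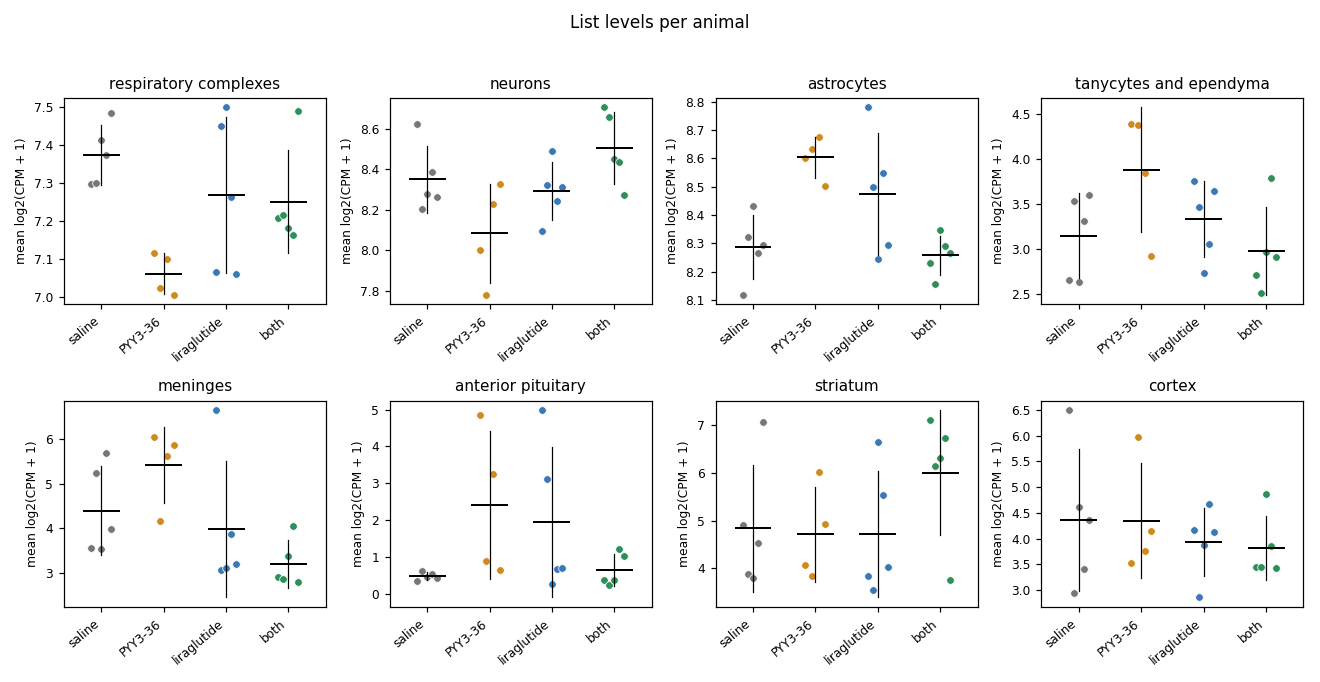
The panels show the mean log2(CPM + 1) of the members of selected gene lists, with 1 point per animal in the Saline, PYY, Lira and PYY_Lira groups, a bar at the mean and an error bar of 1 SD. The respiratory chain level is lower in every PYY animal (7.005 to 7.115) than in every Saline animal (7.296 to 7.484), and the pituitary level is high in 4 libraries of the single treatments.

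Lists of signalling linked to energy balance are read beside the 51.4% of all genes that were negative and the 9.46% that were below the sum at an unadjusted p under 0.05. Of 26 genes of melanocortin, leptin, insulin and ghrelin signalling, 18 were negative and 7 were below the sum at an unadjusted p under 0.05, with a median of -0.305. Examples were Stat5a (-0.844), Stat3 (-0.641), the transcription factor activated by the leptin receptor, and Socs3 (-1.58), its feedback inhibitor. Without the 4 libraries of highest pituitary marker level these had -0.422, -0.0555 and -0.354. Of 26 genes of AMPK and lipid synthesis, 20 were negative and 9 were at that level, with a median of -0.274. They included Scd, Srebf1 (-0.788), the transcription factor that drives lipogenic genes, and Cpt1a (-0.439), which moves fatty acids into mitochondria for oxidation and is not a synthetic enzyme. Of 17 inflammation genes, 16 were negative and 7 were at that level, with a median of -0.386 and examples Nfkb2 (-1), Tlr4 (-1.59) and Icam1 (-1.49). Microglial, astrocytic and meningeal markers leaned the same way, and their part in these lists was not tested.

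Cyclic AMP signalling, the pathway both receptors feed into, was split in direction. Of its 25 genes 14 were positive and 11 negative, with 3 above and 2 below the sum at an unadjusted p under 0.05 and a median of 0.102. Rapgef3 (-0.675), the cyclic AMP sensor Epac1, and Gnai2 (-0.533, or -0.253 without the 4 libraries of highest pituitary marker level), an inhibitory G protein subunit, lay below the sum, and Prkar2b (1.07), a regulatory subunit of protein kinase A, lay above it. The smallest adjusted p of the list in edgeR was 0.135. The 18 glucocorticoid and stress genes had a median of -0.27 with 0 above and 2 below at that level, and the 19 endoplasmic reticulum stress genes had a median of 0.148 with 3 above, among them Atf4 (0.392), and 0 below.

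Of 14 neuroendocrine hormones and releasing factors 3 were above and 4 below the sum at an unadjusted p under 0.05, Gnrh1 and Crh among those above and Pomc among those below. Of 24 monoamine genes 1 was above and 4 below. These included Hdc (-7.76, or -0.756 without the 4 libraries of highest pituitary marker level), which makes histamine in the tuberomammillary nucleus, Slc18a2 (-4.94, or -1.36 without them), the vesicular monoamine transporter, and Slc6a3, the dopamine transporter. Slc6a3 was at 0 in all saline-treated animals, at 83.0, 0.0466, 144 and 0.0356 CPM in PYY, at 30, 0.233, 0, 16.3 and 0.751 in Lira, and at 0.0425, 0.319, 0.0827, 1.11 and 0.493 in PYY_Lira. Its level came from 4 of the 9 single treatment libraries at 16.3 CPM or more, so no fold is given.

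**Figure D5:**
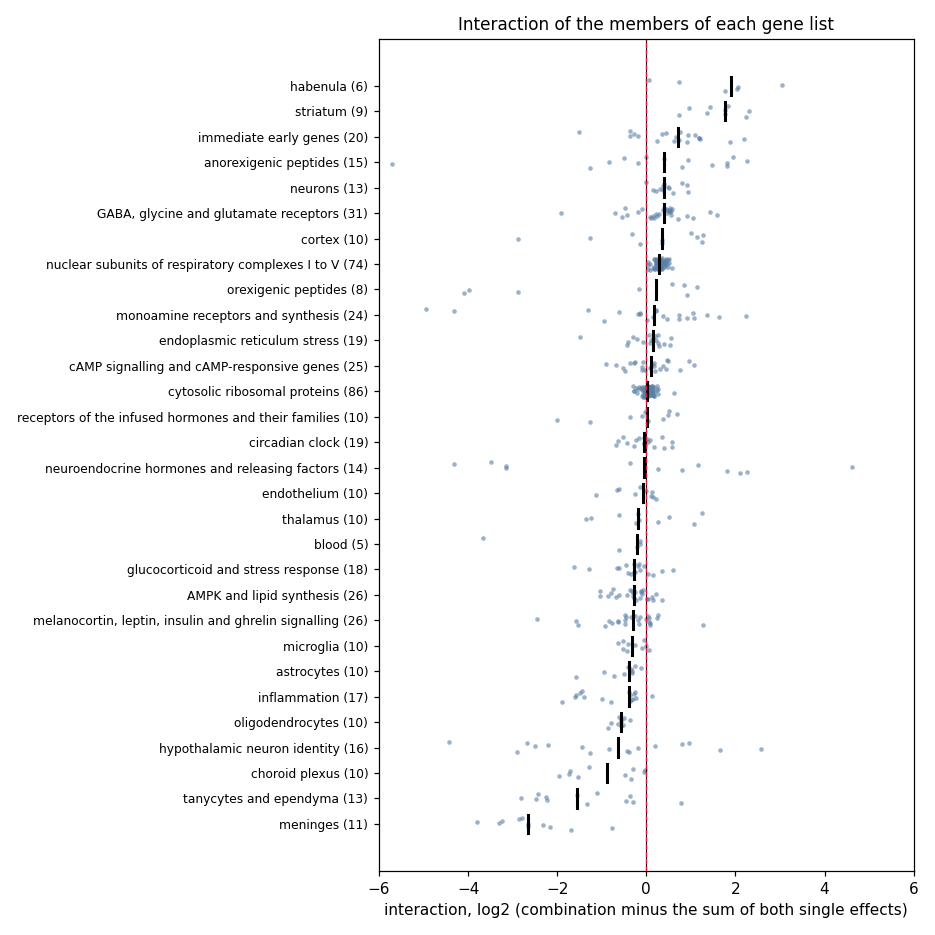
Each point is the log2 interaction of 1 gene in 1 of 30 gene lists (x axis, log2 units), with the list median marked and the median of all genes, -0.0135, as a dashed line. The 74 respiratory chain genes all lie to the right of 0 and the 10 astrocyte and 11 meningeal markers all lie to the left, and 6 members lie beyond the axis.

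Of the circadian clock genes, Per3 stood apart from saline in each treated group. Of 19 clock genes, 8 were positive and 11 negative, with 0 above and 3 below the sum at an unadjusted p under 0.05 and a median of -0.0421. Per3, a period gene, had 15.3, 21.7, 18.0, 17.9 and 20.4 CPM in Saline, 30.2, 34.4, 28.7 and 32.0 in PYY, 30.7, 24.6, 30.9, 28.7 and 29.1 in Lira, and 30.9, 29.9, 37.5, 27.6 and 24.2 in PYY_Lira. Every treated animal was above every saline-treated animal, and the combination averaged 30 ± 4.94 CPM (SD, n = 5) beside 31.3 ± 2.47 for PYY3-36 alone (n = 4), where 48.3 was expected from the sum. How many of all tested genes separate treated from saline-treated animals in this way was not counted. The interaction of Per3 was -0.687 ± 0.166 (SE, adjusted p = 0.137 in edgeR). Nr1d1, the clock repressor REV-ERBα, had -0.432.

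The effects averaged over the other hormone did not pass the test for any gene either. For PYY3-36 averaged over liraglutide, edgeR called 0 genes, with a smallest adjusted p of 0.781 and 1250 genes at an unadjusted p under 0.05, and DESeq2 called 2. For liraglutide averaged over PYY3-36, edgeR called 0 with a smallest adjusted p of 0.59 and 1599 at that level, and DESeq2 called 2. Leaving out Lira replicate 1 raised the edgeR count for liraglutide to 82, and leaving out PYY replicate 1 raised it to 1. PYY3-36 against saline without liraglutide gave 0 in edgeR (smallest adjusted p 0.145, 2919 at that level) but 46 in DESeq2 and 45 in limma voom, and PYY3-36 with liraglutide gave 0 (0.772, 1101 at that level) and 6 in DESeq2. These 2 arms were not compared by their counts, since the interaction is the test of their difference.

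Of the genes with the smallest p for the averaged PYY3-36 effect, Tbcel (0.259, adjusted p = 0.781 in edgeR), related to a tubulin folding cofactor, was at 41.5 ± 1.66 CPM in Saline (SD, n = 5), 55.0 ± 5.08 in PYY (n = 4), 41.9 ± 2.45 in Lira and 45.2 ± 2.28 in PYY_Lira (n = 5 each). Per3 (0.403) and LOC102546798 (0.921) were the other positive genes, and Sptssb (-0.902), a subunit of the first enzyme of sphingolipid synthesis, and Ndufv3-ps1 (-0.332) were negative. Gc, the vitamin D binding protein gene, was at 0 in all PYY animals, at 0 to 6.01 CPM in Saline, up to 11.5 in Lira and at or below 0.128 in PYY_Lira.

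For the averaged liraglutide effect, the genes of smallest p were LOC102550503 (1.95), Slc32a1 (0.711) and Rpp25 (0.498) on the positive side, each with an adjusted p of 0.59 in edgeR. Slc32a1, the vesicular GABA transporter, averaged 167 ± 29.9 CPM in Saline (SD, n = 5), 125 ± 37.4 in PYY (n = 4), 208 ± 76.2 in Lira (n = 5) and 270 ± 65.5 in PYY_Lira (n = 5). On the negative side were Cyp4v3 (-0.446), a fatty acid hydroxylase, Asprv1 (-1.40) and the transcription factor gene Elf1 (-0.410). Elf1 averaged 8.52 ± 0.983 CPM in Saline, 11.4 ± 1.68 in PYY, 7.92 ± 1.03 in Lira and 6.97 ± 0.624 in PYY_Lira.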

How the data were processed

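RNA-seq libraries of rat hypothalamus, prepared from poly-A RNA with a stranded kit and read as 75 nt single-end reads, were processed by the authors with bcl2fastq 2.20.0.422, cutadapt (1.16 in the submitters' notes, with further versions named in the paper), STAR 2.7.2b against Rnor_6.0 and featureCounts 1.6.4 with RefSeq annotation, per the paper's methods and the submitters' processing notes. The authors deposited 1 table of expected counts per gene, not normalised: reads that fit several genes were split, so 29.3% of nonzero values were not whole (tolerance 1e-06). Values were rounded here, which moved no library total by more than 0.00101%. No column of the table lacked a sample (0 columns). Each library is a separate animal.

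Genes with a count of at least 10 in enough libraries and a total of at least 15 were kept (filterByExpr). The 19 libraries were fitted with 1 mean per group in edgeR 4.0.16 (robust quasi-likelihood test, TMM scaling, R 4.3.3), with 15 residual degrees of freedom and a common biological coefficient of variation of 0.306. Calls needed both an absolute log2 value above 1 and a p under 0.05 after the Benjamini-Hochberg procedure. Errors of log2 values are standard errors and intervals cover 95%. Alternatives were RLE scaling, other filters, DESeq2 1.42.0, limma 3.58.1 (voom), a fit that was not robust, wider sets of libraries, marker scores as covariates, a replicate block and leaving out each animal. Fits with neuron, astrocyte and oligodendrocyte scores and without the libraries of highest pituitary or cortex marker level were chosen after seeing the data. Figures used Python 3.11.15 and matplotlib 3.10.9. The code was tested on simulated data.

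The genes named were the 10 of smallest interaction p in each direction with a mean of at least 1 CPM, the 3 of smallest p in each direction for each averaged effect, members of the lists of feeding peptides and hormone receptors, and up to 3 members of each other list. The rule chose 143 genes. Values are given for all tested feeding peptide and receptor genes and for part of the examples of the other lists. Some list members are not reported here. Gene lists and comparisons were chosen with earlier results of these data known. All libraries are of batch B, so batch does not enter. Coordinates are of Rnor_6.0 and promoters are RefSeq's on GRCr8.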

Additional observations from a re-analysis of the deposited data

Results flagged for a closer look

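In 9 genes the groups did not overlap in either arm and the order was opposite in the 2 arms, although none passed the interaction test. PYY was wholly above Saline and PYY_Lira wholly below Lira in Hps5 (interaction -0.721), Gpr183 (-3.11), Plscr4 (-1.37), Smarcd2 (-0.67) and Cyp27a1 (-1.86). The reverse order was seen in LOC103693584 (1.06), Maneal (0.721), Srpk2 (0.359) and Fam19a2 (1.57). Plscr4, Smarcd2, Cyp27a1, Srpk2 and Fam19a2 are named because they met this description and were chosen after their values were seen. Their adjusted p-values in edgeR were 0.135 to 0.173.

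Single animals stood far from the rest of their group in 4 of 124 groups of values (3.23%), where chance gives about 1 in 20. LOC102550503 was high in Saline replicate 6, at 1.85 on the log2(CPM + 1) scale against 0.993 to 1.2 in the other saline-treated animals (gap over range 0.765). Choroid plexus markers were high in PYY replicate 2, with a mean log2 level of 3.96 against 2.01 to 2.27 (0.868), and in PYY_Lira replicate 7, with 2.94 against 1.36 to 1.69 (0.79). Meningeal markers were high in Lira replicate 1, with 6.65 against 3.07 to 3.88 (0.773), and without this animal the median interaction of the meningeal list was -1.06 in place of -2.65.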

How the results depend on the processing

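The interaction gave 0 called genes under most settings. It gave 181 in DESeq2, 3 with all 28 batch B libraries (Axl, LOC103693584 and Gpr183), 1 with habenula, thalamus, striatum and cortex scores (Axl, -1.64) and 0 to 1 when single animals were left out (1, LOC103693584, without Saline replicate 6). Genes above the sum at an unadjusted p under 0.05 numbered 643 with all 65 libraries, 557 with pituitary, choroid plexus and meninges scores, 203 with neuron, astrocyte and oligodendrocyte scores and 898 to 1756 without single animals (highest without Lira replicate 3). Those below numbered 698, 633 and 362 in the same fits, 962 without the 4 libraries of highest pituitary score, and 1202 to 1898 without single animals (lowest without Lira replicate 1). The labels do not say that animals sharing a replicate number are paired, and they were not treated as pairs in the main fit. Of 10 pairs sharing a number 4 had a correlation over 0.1 (median 0.0575). The same held for 36 of 125 pairs of different number (median -0.0155). The replicate block gave 0 called genes, 758 below the sum and 3178 genes with an interval within -1 to 1, against 10933 (10406 to 11095 without single animals). Called genes for the averaged liraglutide effect were 2 in DESeq2 and 0 to 82 without single animals. The averaged PYY3-36 effect gave 2 in DESeq2. PYY3-36 with liraglutide gave 6 in DESeq2, and without it 46 in DESeq2, 45 in limma voom and 3 with 27 libraries and a batch term. The sign of none of the 20 genes of smallest interaction p changed in any setting. They were chosen for a small p in the same animals that these settings refit, so their steady sign is in part fixed by the choice. Of the 143 genes that the naming rule chose, 49 changed sign in some setting. These counted 20 genes with pituitary, choroid plexus and meninges scores, 24 with neuron, astrocyte and oligodendrocyte scores, 15 with the replicate block, 12 without the 4 libraries of highest pituitary score and 10 with habenula, thalamus, striatum and cortex scores. For the genes whose interaction values are given in the text, the values of opposite sign were these. Without the 4 libraries of highest pituitary score, Adcyap1 was 1.59, Agrp 0.505, Cartpt 1.79, Gal 0.653, Glp1r 0.415, Grp -0.0302, Hcrt 3.58, Npy2r 0.161, Nucb2 0.397, Pmch 4.54, Pomc 0.671 and Ramp2 0.526. With pituitary, choroid plexus and meninges scores, Adcyap1 was 1.86, Bdnf 0.0573, Cartpt 1.33, Gal 0.763, Gipr -0.448, Hcrt 1.25, Hdc 0.146, Npy -0.151, Npy2r 0.187, Nucb2 0.356, Pmch 3.04, Ramp1 -0.039 and Ramp2 0.447. With neuron, astrocyte and oligodendrocyte scores, Adcyap1 was 1.95, Aldh1l1 0.123, Bdnf 0.059, Cartpt 1.22, Cck 0.232, Gal 1.03, Gfap 0.121, Gipr -0.315, Hcrt 0.647, Hdc 0.273, Igf2 0.506, Nucb2 0.252, Ogn 0.179, Pmch 2.59, Ramp2 0.71, Ramp3 -0.0634 and Slc6a13 0.755. With habenula, thalamus, striatum and cortex scores, Adcyap1 was 0.254, Cck 0.04, Gal 0.739, Gipr -0.31, Npy5r 0.0651, Nucb2 0.106 and Ramp2 0.181. With the replicate block, Bdnf was 0.801, Calcr -3.62, Gipr -0.225, Grp -0.463, Npy1r -0.59, Npy2r 0.725, Oxt -11.3, Pdyn -2.3, Pnoc -0.629, Ramp3 -2.48, Trh -5.85 and Ucn3 -4.35. With 65 libraries and a batch term, Adcyap1 was 0.0781, Gal 0.355 and Ramp2 0.0163. With 27 libraries and a batch term, Cck was 0.163. With the 28 batch B libraries, Cck was 0.0363 and Ramp2 0.0144. Without the 2 libraries of highest cortex score, Gipr was -0.143. In limma voom, Calcr was -0.0416 and Gipr -0.467. With RLE scaling, Cck was 0.00975. With no filter on low counts, Cck was 0.00378 and Ramp2 0.00866. In DESeq2, Cck was 0.0109. When single animals were left out, values of both signs occurred, -0.401 to 1.1 for Calcr, -0.464 to 0.526 for Cck, -0.755 to 0.201 for Gal, -0.298 to 0.289 for Gipr, -0.219 to 0.116 for Npy5r, -0.343 to 0.00719 for Nucb2, -0.239 to 0.14 for Ramp2 and -0.122 to 0.955 for Ramp3. Gfap and Aldh1l1 belong to the astrocyte score, so the fit with that score takes out part of their own signal. The cause of the changes of sign was not tested. The median standard error of the interaction, 0.276, limits the size that could be resolved.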

Other observations

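DESeq2 called 181 genes in the interaction, and 14 of them belonged to the gene lists. Its smallest adjusted p was that of Slc6a3 (2.47e-05), a gene at 0 in all saline-treated animals. Other examples among the genes named above were LOC103693584 (1.07, adjusted p = 9.65e-05), LOC102550503 (3.52), Gnrh1 (4.65), Axl (-1.22), Scd (-1.01), Gpr183 (-3.11), Vim (-2.42) and Gfap (-1.57). Pomc (-6.42), Nmu (-5.73), Hdc (-7.78) and Slc18a2 (-4.93) were also called, and in edgeR the interactions of these 4 genes were between -1.36 and 0.671 without the 4 libraries of highest pituitary marker level. Of the 20 genes of smallest p in edgeR, 6 were among the 181. A call also needed an absolute log2 value above 1, which others of the 20, such as Maneal (0.721) and Hps5 (-0.721), did not reach in edgeR. By adjusted p under 0.05 alone, without the size threshold, DESeq2 had 381 genes.

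The effect of liraglutide in animals that also received PYY3-36 had the smallest adjusted p of all contrasts fitted, 0.0871 in edgeR, with 0 genes called, 195 genes at an adjusted p under 0.1 and 3533 at an unadjusted p under 0.05. The effect of liraglutide against saline without PYY3-36 had a smallest adjusted p of 0.463, 0 genes called and 971 at an unadjusted p under 0.05. The combination against saline had 0.218, 0 and 1802. The difference between the liraglutide effects is the interaction itself, which passed for 0 genes.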
